A study of Mus musculus with 12 samples.

Results

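The 8 genes described here are transcripts that mark mast cells: Cma1, Mcpt4, Cpa3, Tpsb2, Kit, Ms4a2, Fcer1a and Hdc. They were taken by symbol from the deposited table, which holds 22183 genes, and each symbol had 1 row. The libraries are RNA sequencing of aorta, taken from its ascending part down to the lower bifurcation, from male mice that all lack ApoE, a carrier of lipoproteins whose loss raises plasma cholesterol. The mice entered the study at 8 weeks of age, and there are 4 libraries in each of 3 groups. The HFD+TUDCA mice ate a diet of 16% fat and 0.25% cholesterol for 8 weeks and then received the bile acid TUDCA (tauroursodeoxycholic acid) by gavage at 1000 mg/kg each day for 4 weeks. The HFD mice had the same high-fat diet and received saline over those 4 weeks. The NFD mice ate a diet of 5% fat without cholesterol and also received saline. No group has intact ApoE, so a normal-diet mouse is here still an ApoE-/- mouse, and none received TUDCA on the normal diet. The labels do not say whether each library came from 1 animal or from a pool, so p-values measure the spread between these libraries.

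Mast cells are resident immune cells of connective tissue, and in arteries they lie mainly in the adventitia and around plaques. They depend on stem cell factor acting through the receptor KIT, carry IgE on the high-affinity receptor FcεRI, and store proteases, histamine and heparin in granules that they release on activation. The connective tissue type in mice holds chymases (Cma1 and Mcpt4), a tryptase (Tpsb2) and a carboxypeptidase (Cpa3), whereas mucosal mast cells hold Mcpt1 and Mcpt2. Whole aorta was sequenced, so fewer mast cells and less RNA per mast cell cannot be told apart in any value below.

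All 8 genes are annotated as protein-coding in GENCODE M21 on the build GRCm38, which is the build named in the submitters' processing notes. Cma1 (ENSMUSG00000022225, chr14:55941451-55944675) encodes mouse mast cell protease 5, a chymase, and Mcpt4 (ENSMUSG00000061068, chr14:56059629-56062313) encodes the chymase closest in activity to the human enzyme. Both lie on the minus strand of chromosome 14 in the chymase locus. Cpa3 (ENSMUSG00000001865, chr3:20215620-20242181, minus strand) encodes mast cell carboxypeptidase A, and Tpsb2 (ENSMUSG00000033825, chr17:25366305-25369098, plus strand) encodes tryptase beta 2. Kit (ENSMUSG00000005672, chr5:75574916-75656722, plus strand) encodes the stem cell factor receptor, which melanocytes also carry. Fcer1a (ENSMUSG00000005339, chr1:173221284-173227214, minus strand) and Ms4a2 (ENSMUSG00000024680, chr19:11615523-11623719, minus strand) encode the alpha and beta chains of FcεRI. Hdc (ENSMUSG00000027360, chr2:126593667-126619299, minus strand) encodes histidine decarboxylase, which makes histamine in mast cells and in other myeloid cells, among them basophils and neutrophils.

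The 250 bases before the transcription start are shown for Cma1 and Mcpt4, which moved together across the libraries, and for Cpa3 and Fcer1a, which formed a second pair. They come from RefSeq on GRCm38.p6 and are written 5′ to 3′ on the minus strand, on which all 4 genes are transcribed. The windows are chr14:55944676-55944925 for Cma1, chr14:56062311-56062560 for Mcpt4, chr3:20242182-20242431 for Cpa3 and chr1:173227230-173227479 for Fcer1a. Capitals mark letters that match the short sequence recognised by GATA factors, of which GATA2 is needed for mast cell development.
Cma1: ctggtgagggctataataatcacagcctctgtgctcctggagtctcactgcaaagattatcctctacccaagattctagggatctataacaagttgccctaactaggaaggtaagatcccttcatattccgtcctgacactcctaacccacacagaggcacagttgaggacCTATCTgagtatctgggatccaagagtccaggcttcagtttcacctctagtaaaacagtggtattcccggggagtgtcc
Mcpt4: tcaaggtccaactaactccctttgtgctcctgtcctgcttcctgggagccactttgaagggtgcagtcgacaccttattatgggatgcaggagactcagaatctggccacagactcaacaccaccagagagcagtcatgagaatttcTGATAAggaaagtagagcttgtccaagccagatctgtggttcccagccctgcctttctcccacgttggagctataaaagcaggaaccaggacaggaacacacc
Cpa3: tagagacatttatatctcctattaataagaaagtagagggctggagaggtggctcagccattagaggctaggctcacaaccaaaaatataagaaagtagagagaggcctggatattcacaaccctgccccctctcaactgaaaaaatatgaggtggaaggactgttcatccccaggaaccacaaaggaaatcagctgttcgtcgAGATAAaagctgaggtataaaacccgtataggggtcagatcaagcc
Fcer1a: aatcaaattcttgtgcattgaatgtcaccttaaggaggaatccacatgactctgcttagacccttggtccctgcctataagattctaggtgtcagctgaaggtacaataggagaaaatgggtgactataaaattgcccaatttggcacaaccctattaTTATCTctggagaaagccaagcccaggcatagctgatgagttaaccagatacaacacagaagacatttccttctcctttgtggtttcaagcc
The letters searched for GATA were AGATAA with its variant AGATAG plus the forms TGATAA as well as TGATAG, on both strands. The match begins 79 bases before the transcription start in Cma1, 103 bases before it in Mcpt4, 46 in Cpa3 and 92 in Fcer1a. Upstream sequences were matched for 7 of the 8 genes (Kit, Ms4a2 and Hdc besides the 4 shown), and 6 of the 7 held such letters, Kit being the exception. The same letters occur in 26.5% of the 32851 upstream sequences of that length in the table. The letters CATGTG or their palindromic form CACGTG, read by the factor MITF, occurred on either strand in 1 of the 7, Fcer1a, and in 17.6% of all upstream sequences. These matches are a description of the letters in these windows and not of binding.

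Library totals ran between 15199312 and 22061687 counts, and 16526 to 17115 genes were detected per library. A count of 3 corresponds to 0.136 to 0.197 CPM (counts scaled to a common library size). HFD+TUDCA replicate 4 stood apart from the other libraries: its mitochondrial share of counts was 19.2%, against 8.56% to 16.0% in the other 11. Its summed heart muscle markers (Myh6, Tnnt2, Tnni3, Myl7 and Nppa) reached 16.3 CPM, against 254 to 8311 CPM elsewhere. Its summed smooth muscle markers were the highest of all at 5036 CPM, and its summed macrophage markers (Cd68, Adgre1, Csf1r, Itgam and Lyz2) were the lowest at 1057 CPM. Results that use this library are therefore given with it and without it. The heart muscle markers ran between 254 and 2016 CPM in HFD and between 2656 and 7030 CPM in NFD libraries, and 2 of the 5 fell in HFD against NFD. Adventitial fibroblast markers, from the layer where most arterial mast cells lie, summed to 869 to 1474 CPM in HFD+TUDCA, 994 to 2541 CPM in HFD and 1219 to 1722 CPM in NFD libraries, and none of the 6 was called in any comparison by edgeR. Smooth muscle markers, which define the arterial wall, were abundant in all 12 libraries (at least 1716 CPM in sum). In HFD against NFD, all 5 smooth muscle and all 5 white adipocyte markers had negative log2 fold changes, and 1 of each list fell (Cnn1 and Retn). Over all tested genes 1.64% were called lower in that comparison. Airway epithelium markers summed to 0.557 to 1096 CPM in HFD+TUDCA, 0.674 to 852 CPM in HFD and 964 to 1937 CPM in NFD libraries. Adrenal cortex markers ran between 3.75 and 2595 CPM over the 12 libraries. Mesothelium markers (Msln, Upk3b, Lrrn4 and Wt1) summed to 25.3 to 187 CPM in HFD+TUDCA, 75.6 to 157 CPM in HFD and 111 to 217 CPM in NFD libraries. The lowest of these was HFD+TUDCA replicate 4. The part of such tissue differences in the results below was not tested.

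Per unit of gene length, the chymases and the tryptase were the most abundant of the 8 genes. In deposited FPKM (fragments scaled by gene length and library depth), Mcpt4 averaged 40.2 ± 26.9 in HFD+TUDCA, 35.1 ± 15.4 in HFD and 28.9 ± 4.33 in NFD aortas (SD, n = 4 each, as for all means below). Cma1 averaged 27.4, 30.8 and 21.4 FPKM and Tpsb2 averaged 24.5, 24.2 and 18.8 FPKM in the same order of groups. Cpa3 stood lower at 5.43, 8.69 and 7.50 FPKM, followed by Kit at 3.25, 3.58 and 3.83 FPKM and Fcer1a at 1.46, 2.49 and 1.75 FPKM. Hdc took a higher place in HFD aortas than in the other groups. It averaged 4.48 FPKM in HFD+TUDCA and 4.39 FPKM in NFD aortas, next to Kit, but 20.0 ± 13.2 FPKM in HFD aortas, next to Tpsb2. Ms4a2 was last in every group, at 0.0915, 0.114 and 0.134 FPKM. In NFD aortas the ranges of Mcpt4 (24.1 to 34.1 FPKM), Cma1 (15.7 to 26.7 FPKM) and Tpsb2 (13.9 to 21.8 FPKM) overlapped from one neighbour to the next, as did those of Cpa3 (6.11 to 9.27 FPKM), Hdc (3.50 to 6.28 FPKM) and Kit (3.30 to 4.51 FPKM). Those of Tpsb2 and Cpa3 did not overlap, nor did those of Kit and Fcer1a (1.15 to 2.30 FPKM).

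**Figure D1:**
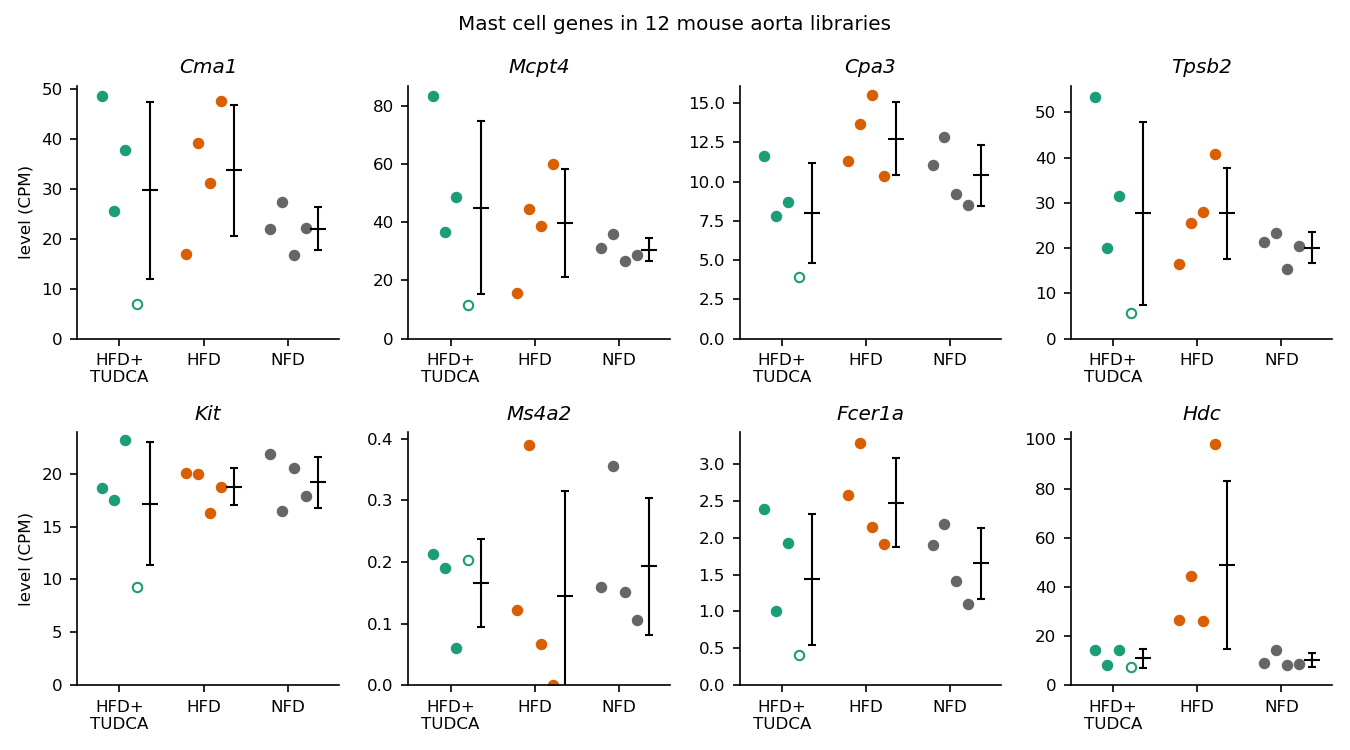
Level of each of the 8 genes (vertical axes, CPM from 0) in the HFD+TUDCA, HFD and NFD libraries. Each point is 1 library in replicate order, the open circle is HFD+TUDCA replicate 4, and the bar beside the points is the mean with its SD (cut at 0 for Ms4a2 in HFD); Hdc in all 4 HFD libraries lies above every other library, at 25.9 CPM or more.

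Hdc was the gene among the 8 that separated the groups. It stood at 14.3, 7.96, 14.1 and 7.14 CPM in HFD+TUDCA replicates 1 to 4, at 26.4, 44.5, 25.9 and 98.3 CPM in HFD replicates 1 to 4, and at 8.83, 14.4, 8.34 and 8.67 CPM in NFD replicates 1 to 4. All 4 HFD libraries were above all libraries of both other groups, which overlapped each other, and HFD replicate 4 was the highest. In HFD against NFD aortas Hdc rose 4.84-fold, a log2 fold change of 2.28 ± 0.44 (SE; 95% interval 1.28 to 3.27) with an adjusted p of 0.0230 in edgeR's quasi-likelihood test with Benjamini-Hochberg adjustment over all 14918 genes tested. It was the 1 gene called higher of the 7 members that passed the filter on low counts, where 3.18% of all tested genes were called higher and 1.64% lower, and no member was called lower. It was also the 1 member with all HFD libraries above all NFD libraries, which held for 8.1% of tested genes, and none lay wholly below, which held for 6.89%. Without HFD replicate 4 the log2 fold change of Hdc was 1.65, with an adjusted p of 0.0113. The call was lost when NFD replicate 1, 3 or 4 was left out (adjusted p 0.0816, 0.0938 and 0.0770 in edgeR), although the log2 fold change stayed at 2.16 or more.

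In HFD+TUDCA against HFD aortas Hdc had a log2 fold change of -2.12 ± 0.46 (SE; 95% interval -3.16 to -1.08), with all 4 HFD+TUDCA libraries below all 4 HFD libraries, a pattern that 4.78% of tested genes shared. No member lay wholly above, which held for 2.75% of tested genes. No gene of 14587 was called in this comparison by edgeR (background 0% in either direction), where 1745 had an unadjusted p under 0.05, and the adjusted p of Hdc was 0.194. DESeq2 called 355 genes (0.543% of those tested higher and 1.99% lower), with Hdc among the lower ones at an adjusted p of 0.00107. A single edgeR fit of all 12 libraries called 115 genes (0.0592% higher and 0.697% lower), with Hdc lower at an adjusted p of 0.0451. Over all the alternatives run, the adjusted p of Hdc ranged between 0.00107 and 0.814, and why some passed the threshold was not tested. Without HFD+TUDCA replicate 4 the log2 fold change was -1.96 (adjusted p 0.257, edgeR), and without both libraries numbered 4 it was -1.41 (adjusted p 0.140, edgeR). This comparison and the one above share the 4 HFD libraries, so they are not independent of each other. Between HFD+TUDCA and NFD aortas Hdc had a log2 fold change of 0.11 ± 0.29 (SE; 95% interval -0.55 to 0.78), an adjusted p of 0.933 in edgeR and overlapping groups.

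Transcripts of other cells that carry Hdc moved in the same libraries. The summed level of 5 neutrophil markers (S100a8, S100a9, Csf3r, Retnlg and Cxcr2) ran between 39.6 and 97.0 CPM in HFD+TUDCA, between 224 and 932 CPM in HFD and between 30.5 and 39.9 CPM in NFD libraries, and all 5 genes rose in HFD against NFD (edgeR, adjusted p at most 0.0135). The 5 macrophage markers summed to 1057 to 3368 CPM in HFD+TUDCA, 4257 to 5200 CPM in HFD and 1766 to 3087 CPM in NFD libraries, and 4 of the 5 rose in HFD against NFD. Over all tested genes 3.18% were called higher in that comparison. Most of the macrophage sum was Lyz2, which averaged 2787 CPM over the 12 libraries, against 42.7 CPM (Itgam) to 231 CPM (Csf1r) for the others. HFD replicate 4 had both the highest neutrophil sum (932 CPM) and the highest Hdc (98.3 CPM). It also had the highest granule protease sum of the HFD group (159 CPM). HFD+TUDCA replicate 4 had the highest neutrophil sum of its group (97.0 CPM) and the lowest Hdc of all libraries (7.14 CPM). With group means removed, log2 Hdc had r = 0.45 with the neutrophil sum, 0.49 with the macrophage sum and 0.68 with the protease sum. Without HFD+TUDCA replicate 4 these were 0.69, 0.49 and 0.76. Markers of other tissue had values of like size: 0.56 for melanocyte, 0.51 for heart muscle, 0.51 for mesothelium and -0.71 for adventitial fibroblast sums. Without that library they were 0.49, 0.52, 0.46 and -0.70. The remaining lists lay between -0.40 (smooth muscle) and 0.30 (airway epithelium) over the 12 libraries. The basophil genes were low: Mcpt8, Prss34 and Cd200r3 summed to at most 0.784 CPM in HFD+TUDCA, 1.78 CPM in HFD and 1.16 CPM in NFD libraries. Of these 3 genes, 1 passed the filter on low counts in each comparison and was not called by edgeR. Mcpt8 was at 0 in all 4 NFD libraries. The 4 granule proteases, by contrast with the neutrophil genes, overlapped between all 3 groups, at 28.2 to 197 CPM in HFD+TUDCA, 60.2 to 159 CPM in HFD and 68.0 to 99.7 CPM in NFD libraries. For each count of Mcpt4 there were 0.171 to 0.616 counts of Hdc in HFD+TUDCA, 0.666 to 1.69 in HFD and 0.283 to 0.397 in NFD libraries, a ratio chosen after its values were seen and given with no test. The part of neutrophils, macrophages or mast cells in the Hdc values was not tested.

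**Figure D2:**
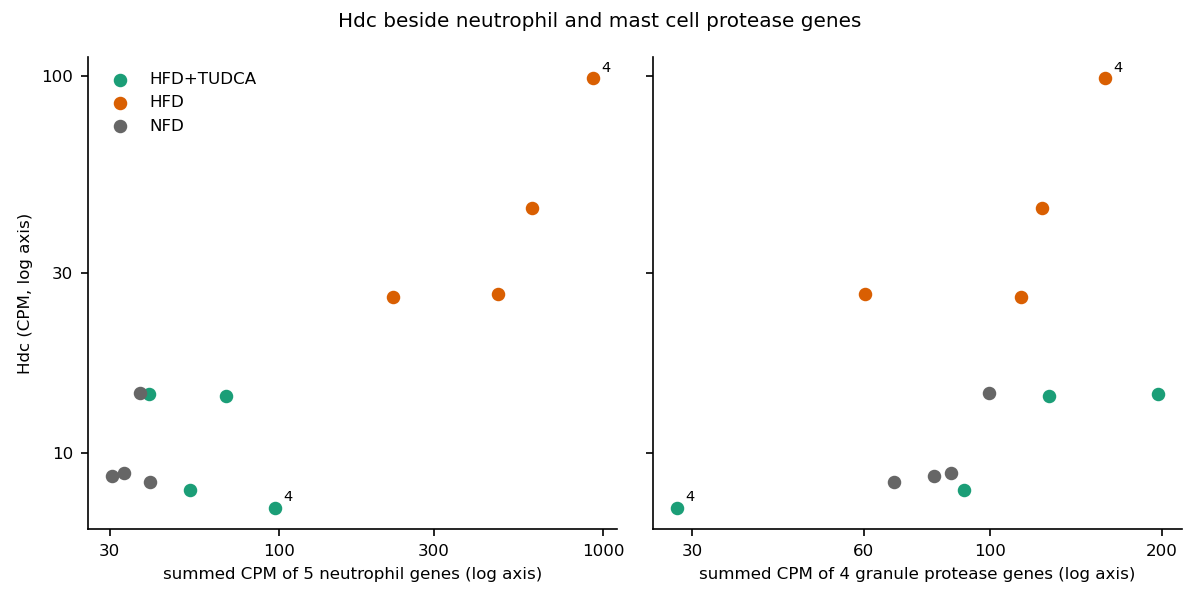
Hdc (vertical log axis, CPM) against the summed CPM of 5 neutrophil genes (left, log axis) and of the 4 granule protease genes (right, log axis), 1 point for each library, with replicate 4 of HFD+TUDCA and of HFD numbered. The HFD libraries stand apart on both axes at left, at 224 CPM or more of neutrophil genes, whereas at right the 3 groups overlap along the protease axis.

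The granule proteases did not show the group pattern of Hdc. Mcpt4 stood at 83.4, 36.6, 48.8 and 11.6 CPM in HFD+TUDCA replicates 1 to 4, at 15.6, 44.6, 38.9 and 60.3 CPM in HFD replicates 1 to 4, and at 31.2, 36.2, 26.6 and 28.7 CPM in NFD replicates 1 to 4. The NFD libraries lay close together and inside the range of both other groups, which held the highest and the lowest libraries of all. The log2 fold change of Mcpt4 was 0.38 ± 0.33 in HFD against NFD, 0.21 ± 0.55 in HFD+TUDCA against HFD and 0.55 ± 0.47 in HFD+TUDCA against NFD (SE), with adjusted p of 0.571, 0.908 and 0.748 in edgeR.

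Cma1 followed the same course. Its levels were 48.6, 25.5, 37.7 and 6.99 CPM in HFD+TUDCA replicates 1 to 4, 16.9, 39.3, 31.1 and 47.7 CPM in HFD replicates 1 to 4, and 21.9, 27.4, 16.7 and 22.1 CPM in NFD replicates 1 to 4. The groups overlapped, although 3 of the 4 HFD libraries were above all NFD libraries. Its log2 fold change was 0.61 ± 0.29 (95% interval -0.03 to 1.26) in HFD against NFD, -0.15 ± 0.51 in HFD+TUDCA against HFD and 0.43 ± 0.48 in HFD+TUDCA against NFD (SE), with adjusted p of 0.264, 0.931 and 0.820 in edgeR.

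Tpsb2 was the most variable of the proteases under TUDCA. It measured 53.5, 20.0, 31.6 and 5.72 CPM in HFD+TUDCA replicates 1 to 4, 16.4, 25.6, 28.0 and 40.7 CPM in HFD replicates 1 to 4, and 21.4, 23.3, 15.4 and 20.4 CPM in NFD replicates 1 to 4. The groups overlapped, and its highest library was 9.34 times its lowest in HFD+TUDCA, 2.48 times in HFD and 1.51 times in NFD aortas. The log2 fold change of Tpsb2 was 0.46 ± 0.25 in HFD against NFD, 0.03 ± 0.55 in HFD+TUDCA against HFD and 0.46 ± 0.53 in HFD+TUDCA against NFD (SE), with adjusted p of 0.346, 0.989 and 0.832 in edgeR. Its near copy Tpsab1 averaged 0.607 CPM in HFD+TUDCA, 0.703 CPM in HFD and 0.596 CPM in NFD aortas and shares no 50-base stretch of annotated transcript with it.

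Cpa3 had a narrower range. Its levels were 11.6, 7.84, 8.68 and 3.90 CPM in HFD+TUDCA replicates 1 to 4, 11.3, 13.7, 15.5 and 10.4 CPM in HFD replicates 1 to 4, and 11.05, 12.8, 9.20 and 8.51 CPM in NFD replicates 1 to 4. HFD+TUDCA replicates 2 to 4 were below all HFD libraries, and replicate 1 was within their range. The log2 fold change of Cpa3 was 0.30 ± 0.21 in HFD against NFD, -0.65 ± 0.32 (95% interval -1.37 to 0.08) in HFD+TUDCA against HFD and -0.38 ± 0.31 in HFD+TUDCA against NFD (SE), with adjusted p of 0.465, 0.462 and 0.735 in edgeR.

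HFD+TUDCA replicate 4 was the lowest of all 12 libraries for all 7 tested genes, Hdc included. When it was left out, the log2 fold changes of Cma1 and Kit against HFD changed sign, as did those of Kit and Fcer1a against NFD. Without it the means of HFD+TUDCA were 37.3 ± 11.5 CPM for Cma1, 56.3 ± 24.3 CPM for Mcpt4, 35.0 ± 17.0 CPM for Tpsb2 and 9.39 ± 2.00 CPM for Cpa3 (SD, n = 3). Against HFD the log2 fold changes were then 0.19 for Cma1, 0.55 for Mcpt4, 0.38 for Tpsb2 and -0.40 for Cpa3, and again no gene was called (background 0% of 14906). Against NFD they were 0.75 for Cma1, 0.86 for Mcpt4, 0.79 for Tpsb2 and -0.16 for Cpa3, with adjusted p of 0.0914, 0.0926, 0.163 and 0.660 in edgeR. No member was called there, although 2.77% of 15125 tested genes were called higher and 1.74% lower, against 0.1% and 0.0937% with the library in. For Mcpt4 the lowest of the other 3 HFD+TUDCA libraries, 36.6 CPM, was just above the highest NFD library, 36.2 CPM. The share of all tested genes that separate with that library left out was not computed, so no separation is read from this. With all libraries, no member in HFD+TUDCA against NFD lay wholly above or wholly below, which held for 3.88% and 3.43% of tested genes. Leaving out HFD+TUDCA replicate 1 instead, the highest library for Cma1, Mcpt4 and Tpsb2, moved these fold changes the other way. Against HFD the log2 fold changes were then -0.49 for Cma1, -0.26 for Mcpt4, -0.50 for Tpsb2 and -0.88 for Cpa3. Against NFD they were 0.09, 0.08, -0.08 and -0.61, and none of these was called by edgeR.

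**Figure D3:**
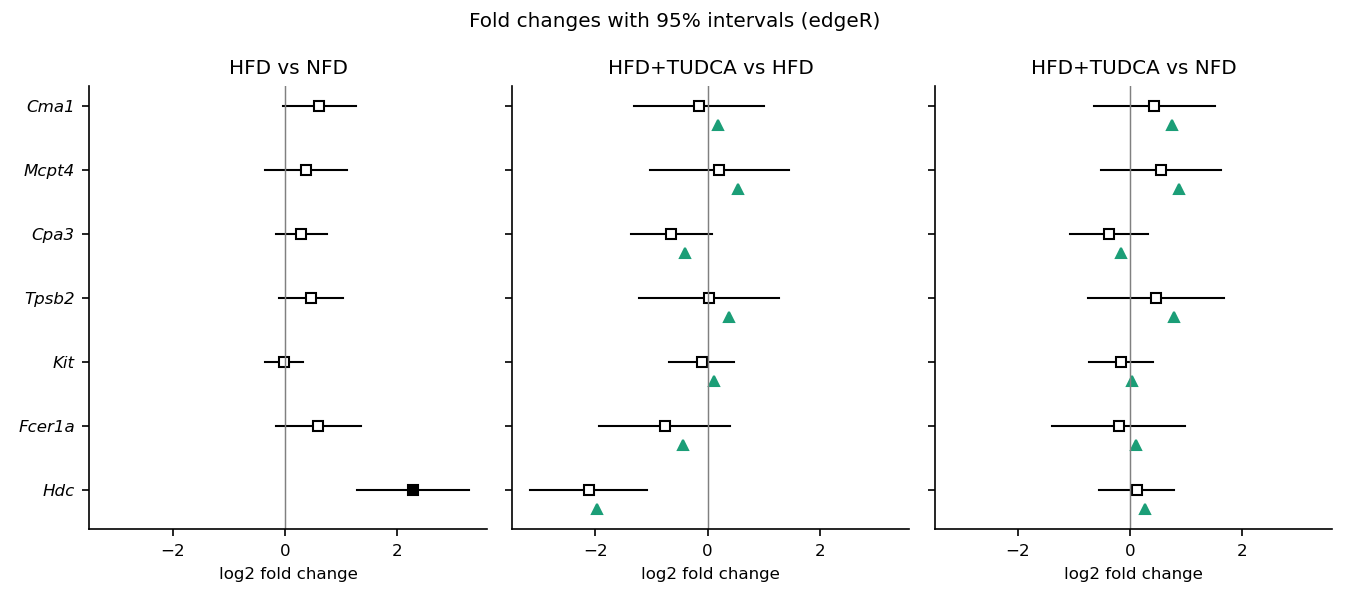
Log2 fold change (horizontal axes) of the 7 tested genes in the 3 comparisons, from edgeR. Squares are the estimates from all libraries with their 95% intervals as lines, the filled square marks the adjusted p under 0.05 (Hdc, HFD vs NFD), and triangles are the estimates without HFD+TUDCA replicate 4, which lie to the right of the squares for all 7 genes in both comparisons that use that library.

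Kit varied least of the 7 tested genes in each group, with an SD of 33.7% of the mean in HFD+TUDCA, 9.28% in HFD and 12.7% in NFD aortas. It stood at 18.7, 17.5, 23.2 and 9.32 CPM in HFD+TUDCA replicates 1 to 4, at 20.0, 20.0, 16.3 and 18.8 CPM in HFD replicates 1 to 4, and at 21.8, 16.5, 20.6 and 17.9 CPM in NFD replicates 1 to 4. The groups overlapped, and all libraries but HFD+TUDCA replicate 4 lay between 16.3 and 23.2 CPM. The log2 fold change of Kit was -0.02 ± 0.15 (95% interval -0.36 to 0.32) in HFD against NFD, -0.11 ± 0.26 in HFD+TUDCA against HFD and -0.16 ± 0.25 in HFD+TUDCA against NFD (SE), with adjusted p of 0.964, 0.896 and 0.881 in edgeR. The interval in HFD against NFD spans folds of 0.779 to 1.25. Melanocyte markers (Dct, Tyrp1, Pmel, Tyr and Mlana), from another cell type with KIT, summed to 1.37 to 5.91 CPM in HFD+TUDCA, 1.47 to 3.51 CPM in HFD and 4.02 to 6.58 CPM in NFD libraries. Log2 Kit had r = 0.64 with this sum, 0.63 with the protease sum and 0.78 with the heart muscle sum. Without HFD+TUDCA replicate 4 these were 0.50, -0.09 and 0.28. The part of each cell type in the Kit values was not tested.

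Fcer1a was low, with 8 to 59 counts a library. It measured 2.39, 1.01, 1.93 and 0.405 CPM in HFD+TUDCA replicates 1 to 4, 2.57, 3.29, 2.14 and 1.91 CPM in HFD replicates 1 to 4, and 1.90, 2.19, 1.41 and 1.10 CPM in NFD replicates 1 to 4. The HFD libraries were on the high side of a range that the groups shared. Its log2 fold change was 0.59 ± 0.34 in HFD against NFD, -0.77 ± 0.51 in HFD+TUDCA against HFD and -0.21 ± 0.52 in HFD+TUDCA against NFD (SE), with adjusted p of 0.361, 0.577 and 0.931 in edgeR. Without HFD+TUDCA replicate 4 the last 2 log2 fold changes were -0.44 and 0.10.

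Ms4a2 was at the limit of detection and was left out of the tests by the filter on low counts. It had 4, 3, 1 and 4 counts in HFD+TUDCA replicates 1 to 4, 2, 7, 1 and 0 counts in HFD replicates 1 to 4, and 3, 7, 3 and 2 counts in NFD replicates 1 to 4. The groups overlapped, and the 12 libraries held 37 counts in all.

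The chymases and the tryptase moved together from library to library, also within groups. Over the 12 libraries the log2 CPM of Cma1 and Mcpt4 correlated with Pearson's r = 0.95 and Spearman's rho = 0.97, those of Cma1 and Tpsb2 with r = 0.97 and rho = 0.95, and those of Mcpt4 and Tpsb2 with r = 0.94 and rho = 0.94. Without HFD+TUDCA replicate 4 (n = 11) r was 0.93, 0.93 and 0.92. With group means removed over the 12 libraries r was 0.98, 0.97 and 0.96. Marker sums of other cells also varied with them. In the same way Cma1 had r = 0.91 with mesothelium, 0.89 with macrophage and 0.84 with heart muscle markers. It had -0.74 with smooth muscle and -0.53 with adventitial fibroblast markers. Without HFD+TUDCA replicate 4 these were 0.72, 0.58, 0.41, -0.26 and -0.67. The remaining lists outside the proteases lay between -0.23 and 0.69. The part of tissue differences here was not tested. Cpa3 was closest to Fcer1a (r = 0.92 and rho = 0.85, and r = 0.79 without HFD+TUDCA replicate 4). With the basophil sum r was 0.73 for Cpa3 and 0.80 for Fcer1a (0.61 and 0.73 without that library). For the macrophage sum these were 0.81 and 0.83 (0.55 and 0.64 without it). For the protease sum, which includes Cpa3, they were 0.70 and 0.72 (0.26 and 0.35 without it). The part of each cell type in this pair was not tested. The relation of Cpa3 to the chymases rested on HFD+TUDCA replicate 4: r between Cpa3 and Cma1 was 0.71 over 12 libraries and 0.25 over 11, and between Cpa3 and Mcpt4 it was 0.56 and 0.12. Kit went the same way, with r to Cma1 of 0.64 over 12 libraries and -0.08 over 11. The points of each pair share their libraries and their depths, so these values are descriptions.

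**Figure D4:**
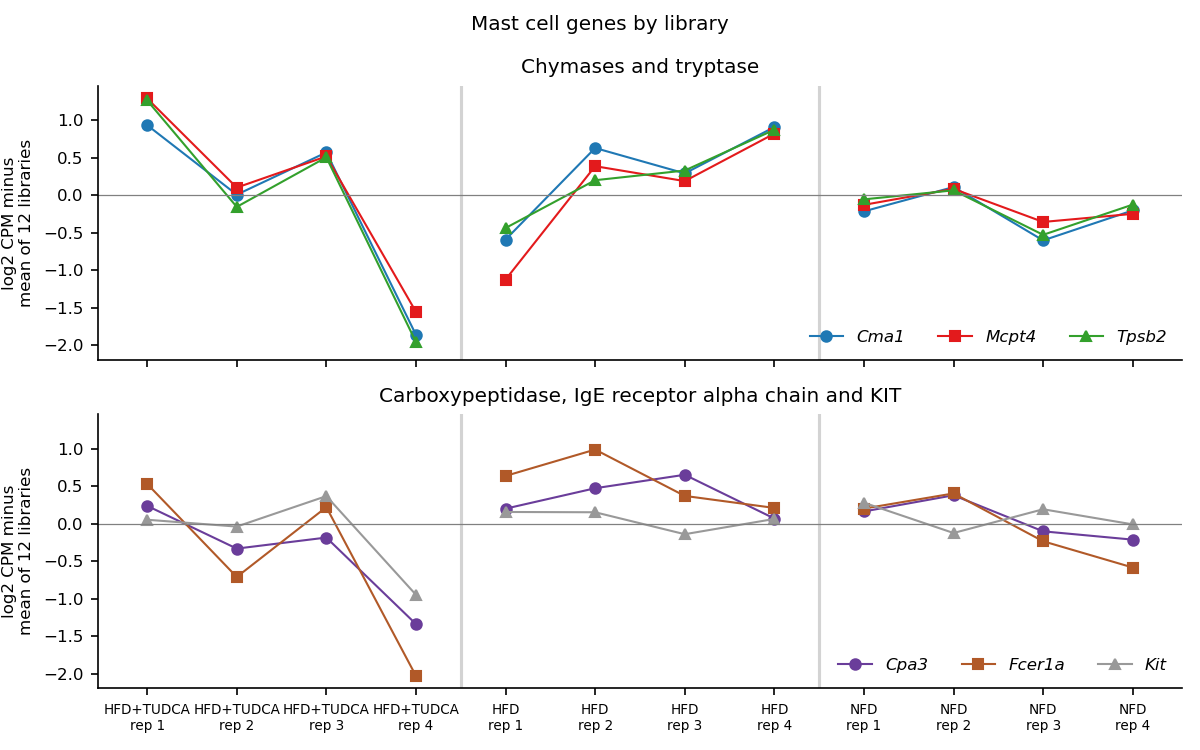
Log2 CPM minus the gene's mean over 12 libraries (vertical axes) for Cma1, Mcpt4 and Tpsb2 (upper plot) and for Cpa3, Fcer1a and Kit (lower plot), by library and group. Lines join the libraries of a group only to guide the eye; the 3 genes of the upper plot run side by side, with HFD replicate 1 and HFD+TUDCA replicate 4 low and HFD+TUDCA replicate 1 high, whereas HFD replicate 1 is not low in the lower plot.

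The balance between the granule proteases differed between libraries. For each count of Mcpt4 there were 0.139, 0.214, 0.178 and 0.336 counts of Cpa3 in HFD+TUDCA replicates 1 to 4, 0.725, 0.307, 0.399 and 0.172 in HFD replicates 1 to 4, and 0.354, 0.355, 0.345 and 0.297 in NFD replicates 1 to 4. The NFD libraries held this ratio nearly fixed, whereas HFD replicate 1 had the most Cpa3 for its Mcpt4 and HFD+TUDCA replicate 1 the least. Cma1 for each count of Mcpt4 stayed within 0.582 to 0.773 in HFD+TUDCA, 0.791 to 1.08 in HFD and 0.628 to 0.769 in NFD libraries, so that all 4 HFD libraries were above all others. No test is given for these ratios, since they were picked with the values in view. They compare counts of genes of unequal length and so hold only between libraries.

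A protease score was made from the log2 CPM of Cma1, Mcpt4, Cpa3 and Tpsb2. Each of these 4 genes was centred on its mean and divided by its SD before they were averaged. Then 14310 genes with a mean of at least 1 CPM were correlated with this score over the 12 libraries to find those most like the proteases. In order they were Ighv1-12, Hpd, Orai1, Rfx1, Fancg, Ighg3, Pigz, Lasp1, Plk1 and 1700017B05Rik, with r between 0.87 and 0.91. Ighv1-12 and Ighg3 are immunoglobulin gene segments, and Orai1 encodes the pore of the store-operated calcium channel. Ighv1-12 was the 1 gene of these that was also among the 10 most alike without HFD+TUDCA replicate 4, which were Anapc15, Cdk2ap2, Ighv1-12, Rxrb, S100a11, Snrpa, Tmem11, Man1b1, Rabac1 and Tssc4, with r between 0.81 and 0.89. Without that library the r of Ighv1-12 was 0.87, that of Orai1 was 0.78 and that of Pigz was 0.62. Without the libraries farthest from the median (HFD+TUDCA replicates 1 and 4), the r of Ighv1-12 was 0.81 and that of Pigz was 0.47. Mast cell genes outside the 4 proteases stood lower in this order: Il1rl1, the receptor of IL-33, was 71st with r = 0.82 (0.58 without HFD+TUDCA replicate 4), Fcer1a was 139th with r = 0.80 (0.52 without it) and Kit was 1173rd with r = 0.67 (-0.17 without it). Hdc was 2310th with r = 0.55 (0.54 without it). The amine transporter Slc18a2 ran opposite to the proteases, at place 14139 with r = -0.79 (-0.58 without it).

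The mucosal mast cell proteases were nearly absent. Of 10 relatives (Tpsab1, Tpsg1, Mcpt1, Mcpt2, Mcpt8, Mcpt9, Cma2, Ctsg, Gzmb and Gzmc), 3 passed the filter in HFD against NFD and none was called. Mcpt1 and Mcpt2 had 3 and 8 counts over all 12 libraries, Cma2 had 10, and Mcpt9 had none. Gzmb, which encodes a granzyme also made by cytotoxic lymphocytes, averaged 1.11 ± 0.802 CPM in HFD+TUDCA, 3.61 ± 2.44 CPM in HFD and 1.39 ± 0.453 CPM in NFD aortas, with a log2 fold change of 1.38 ± 0.48 (SE) in HFD against NFD and an adjusted p of 0.135 in edgeR. Ctsg, a protease of neutrophils as well as mast cells, averaged 0.336 ± 0.206 CPM in HFD+TUDCA, 1.83 ± 2.29 CPM in HFD and 0.603 ± 0.632 CPM in NFD aortas, with a log2 fold change of 1.61 ± 1.08 (SE) in HFD against NFD and an adjusted p of 0.444 in edgeR.

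Some other genes whose products serve mast cell granules were higher on the high-fat diet, whereas none of the granule proteases was called. Of 10 genes for granule matrix, amine storage and amine breakdown, 3 rose and none fell in HFD against NFD (over all tested genes 3.18% were called higher and 1.64% lower), and the median log2 fold change of the 10 was 0.24, against 0.04 over all genes tested. Srgn, the serglycin core protein that holds proteases in granules, averaged 145 ± 24.4 CPM in HFD and 70.1 ± 9.82 CPM in NFD aortas. Its log2 fold change was 1.06 ± 0.17 (SE), with an adjusted p of 0.0119 in edgeR. Tph1, which makes serotonin, averaged 2.31 ± 0.794 CPM in HFD and 0.554 ± 0.0799 CPM in NFD aortas (log2 fold change 2.06 ± 0.38, adjusted p 0.0175). Ctsd, a lysosomal protease of many cell types, also rose (log2 fold change 0.80 ± 0.17, adjusted p 0.0280 in edgeR). With the protease score r was 0.30 for Srgn, 0.33 for Tph1 and 0.41 for Ctsd. Without HFD+TUDCA replicate 4 these were 0.09, 0.28 and 0.48. Which cells carried these transcripts was not tested. The vesicular amine transporter Slc18a2, which loads histamine, averaged 15.1 CPM in HFD and 13.4 CPM in NFD aortas (log2 fold change 0.19 ± 0.41, adjusted p 0.842). Hnmt, which breaks histamine down, averaged 6.65 CPM in HFD and 6.96 CPM in NFD aortas (log2 fold change -0.06 ± 0.45, adjusted p 0.965).

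Among surface receptors of mast cells, those named here that rose on the high-fat diet are also carried by other cells. Of 17 receptors, 14 were tested in HFD against NFD, 8 rose and none fell, where 3.18% of all tested genes were called higher and 1.64% lower, and the median log2 fold change was 1.37. Fcer1g, the gamma chain of FcεRI that also serves the Fcγ receptors of macrophages, averaged 106 ± 29.1 CPM in HFD and 35.0 ± 5.22 CPM in NFD aortas. Its log2 fold change was 1.61 ± 0.22 (SE), with an adjusted p of 0.00478 in edgeR. Among the others that rose were C5ar1 (log2 fold change 2.04), Ccr1 (2.43), Cxcr2 (1.72, also on the neutrophil list), Csf2rb (1.39), Il4ra (1.35) and Cd63 (0.93). Il1rl1 averaged 4.80 CPM in HFD and 4.39 CPM in NFD aortas (log2 fold change 0.13 ± 0.29), and Mrgprb1 averaged 1.31 CPM in HFD and 1.43 CPM in NFD aortas (log2 fold change -0.12 ± 0.36). Mrgprb2, the receptor through which peptides activate mouse connective tissue mast cells, was under the filter with 80 counts over 12 libraries. These lists and the neutrophil and macrophage sums moved in the same libraries, and the part of each cell type was not tested.

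Of the factors that feed or attract mast cells, 7 of 11 were tested in HFD against NFD and 1 rose, Ccl2, with 47.5 ± 44.3 CPM in HFD and 1.29 ± 0.373 CPM in NFD aortas (log2 fold change 5.20 ± 0.66 (SE), adjusted p 0.00426 in edgeR). Kitl, which encodes stem cell factor, averaged 18.9 ± 11.2 CPM in HFD and 18.7 ± 3.78 CPM in NFD aortas (log2 fold change 0.03 ± 0.37). Il33 averaged 59.2 ± 20.1 CPM in HFD and 36.4 ± 6.26 CPM in NFD aortas (log2 fold change 0.72 ± 0.24, adjusted p 0.129). Il3 and Il9, cytokines of T cells that act on mast cells, had 0 counts in all 12 libraries. Of 12 transcription factors, 11 were tested and 2 rose, Spi1 (log2 fold change 1.23, adjusted p 0.0134) and Runx1 (1.12, adjusted p 0.0281), both shared with other blood cells. Beside these counts, 3.18% of all tested genes were called higher and 1.64% lower in HFD against NFD. Gata2 averaged 21.4 CPM in HFD and 25.6 CPM in NFD aortas (log2 fold change -0.25 ± 0.24), and Mitf averaged 13.6 CPM in HFD and 8.64 CPM in NFD aortas (log2 fold change 0.67 ± 0.34). Neither passed the test.

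Downstream of the IgE receptor and KIT, 5 of 26 signalling genes rose in HFD against NFD and none fell, beside 3.18% higher and 1.64% lower over all tested genes, with a median log2 fold change of 0.52. They included Lat2 (log2 fold change 1.66, adjusted p 0.00135), Prkcd (0.95, 0.0114), Lyn (0.88, 0.0280) and Grb2 (0.72, 0.0477), and these 4 also act in cells other than mast cells. Of 8 genes for prostaglandins and leukotrienes, Alox5ap, which presents arachidonic acid to 5-lipoxygenase, rose (log2 fold change 1.66 ± 0.20 (SE), adjusted p 0.00339 in edgeR) and Ptgs1, the constitutive cyclooxygenase, fell (log2 fold change -0.60 ± 0.14, adjusted p 0.0425). Hpgds, the prostaglandin D2 synthase of mast cells and some macrophages, averaged 5.28 ± 5.02 CPM in HFD and 1.12 ± 0.618 CPM in NFD aortas (log2 fold change 2.26 ± 0.73, adjusted p 0.114). On the receiving side, the histamine receptor Hrh2 averaged 6.61 CPM in HFD+TUDCA, 6.60 CPM in HFD and 3.91 CPM in NFD aortas, and neither it nor Hrh1 was called in any comparison by edgeR.

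None of these list genes was called by edgeR in HFD+TUDCA against HFD or in HFD+TUDCA against NFD. Between HFD+TUDCA and HFD, 13 of 14 tested surface receptors and 24 of 26 signalling genes had a negative log2 fold change, with medians of -1.03 and -0.30, against 0.00 over all genes tested. The same lists had medians of 0.16 and 0.20 in HFD+TUDCA against NFD. HFD+TUDCA replicate 4 had the lowest sum of its group for both lists. The receptors summed to 387 CPM in it, 544 to 638 CPM in the other HFD+TUDCA libraries and 841 to 1241 CPM in HFD libraries. For the signalling genes these sums were 1221 CPM, 1856 to 2145 CPM and 1645 to 2924 CPM. Fold changes of list genes without that library were not computed, so its part in these values was not tested. Alox5ap averaged 22.7 ± 4.10 CPM in HFD+TUDCA and 63.8 ± 14.2 CPM in HFD aortas (log2 fold change -1.47 ± 0.21 (SE), adjusted p 0.147 in edgeR). Fcer1g averaged 45.7 ± 12.5 CPM in HFD+TUDCA and 106 ± 29.1 CPM in HFD aortas (log2 fold change -1.20 ± 0.26, adjusted p 0.194). Il33 averaged 22.7 ± 6.13 CPM in HFD+TUDCA and 59.2 ± 20.1 CPM in HFD aortas (log2 fold change -1.37 ± 0.28, adjusted p 0.169).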

How the data were processed

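Poly(A)-selected RNA of mouse aorta was sequenced in 12 libraries, 4 in each of 3 groups named by the sample titles. Per the file headers, the authors deposited a count and an FPKM value for every gene and library. The submitters' processing notes name GRCm38. Aligner, counter, strand setting and annotation release: not given in the sources used here. The deposited values were treated as estimated counts, since 8.53% to 9.43% of a library's values were not whole, and were rounded; all 96 values of the 8 genes were whole. Genes were filtered with filterByExpr (min.count 10, min.total.count 15), scaled by TMM and tested with edgeR 4.0.16 (quasi-likelihood, R 4.3.3) in the libraries of the 2 groups compared, with Benjamini-Hochberg adjustment over all genes tested and a threshold of 0.05. CPM values are counts over the TMM-scaled library size. Alternatives were RLE and upper-quartile scaling, no filter, DESeq2 1.42.0, limma 3.58.1 on log2(FPKM + 1) and log2(FPKM + 0.1) of the deposited FPKM, 1 fit of 12 libraries, a replicate block and leaving out each library. The edgeR procedure was tested on simulated data.

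The 8 genes and the gene lists were chosen with earlier results of these data known. From each list the text names genes that were called or had the smallest unadjusted p, besides genes of direct interest to mast cells that were chosen after their values were seen. Genes are identified by ENSEMBL number and by GENCODE M21, which matched 22128 of 22183 identifiers. Some 50-base stretches of annotated transcript are shared with other genes, 5.38% of those of Cma1 and 5.48% of those of Mcpt4, so counts of these genes may include reads of a near copy.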

Additional observations from a re-analysis of the deposited data

Results flagged for a closer look

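Among 24 combinations of a gene and a group of 4 libraries, 2 held a library whose gap to its nearest neighbour, divided by the range of the group, was above the limit for 4 values (0.829), which chance exceeds in about 1 of 20 groups. Ms4a2 in HFD+TUDCA replicate 3 stood at 0.0603 CPM, below the other 3 libraries of that group. That value is 1 count. Hdc in NFD replicate 2 stood at 14.4 CPM, above the other 3 NFD libraries, and was still below all HFD libraries. Without that library the log2 fold change of Hdc in HFD against NFD was 2.51 (adjusted p 0.0421, edgeR).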

How the results depend on the processing

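Of 364 values of the 7 tested genes under alternatives, 329 kept their direction and their side of the threshold, 30 changed sign, 2 newly passed the threshold and 3 no longer passed it. The 2 that passed were Hdc in HFD+TUDCA against HFD, with DESeq2 and in the fit of all 12 libraries, and the 3 lost were Hdc in HFD against NFD without NFD replicate 1, 3 or 4. Those that changed sign were never called, and their cause was not tested. In HFD+TUDCA against HFD the log2 fold changes were -0.0016 for Mcpt4 and -0.31 for Tpsb2 on log2(FPKM + 1) with or without the filter, and -0.011 for Mcpt4 and -0.35 for Tpsb2 on log2(FPKM + 0.1). Tpsb2 was at -0.0034 in 1 fit of all 12 libraries. Without both libraries numbered 4, an alternative chosen after seeing the data, Cma1 was at 0.36 and Kit at 0.067. Against NFD, on log2(FPKM + 1) with or without the filter Hdc was at -0.011, and on log2(FPKM + 0.1) Hdc was at -0.024 and Tpsb2 at -0.027. Leaving out 1 library gave log2 fold changes of -0.077 to 0.047 for Kit in HFD against NFD. In HFD+TUDCA against HFD it gave -0.49 to 0.19 for Cma1, -0.26 to 0.55 for Mcpt4, -0.50 to 0.38 for Tpsb2 and -0.28 to 0.11 for Kit. For HFD+TUDCA against NFD it gave -0.075 to 0.79 for Tpsb2, -0.34 to 0.029 for Kit, -0.57 to 0.099 for Fcer1a and -0.044 to 0.34 for Hdc.

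Over all genes, edgeR called 720 in HFD against NFD, 0 in HFD+TUDCA against HFD and 29 in HFD+TUDCA against NFD. DESeq2 called 1703, 355 and 543. The fit of all 12 libraries called 115 in HFD+TUDCA against HFD, and limma on log2(FPKM + 1) called 47 in HFD+TUDCA against NFD. Leaving out 1 library gave 178 (without NFD replicate 3) to 1181 (without HFD replicate 3) in HFD against NFD and 4 (without NFD replicate 2) to 682 (without HFD+TUDCA replicate 4) in HFD+TUDCA against NFD. In HFD against NFD the 720 split into 475 higher and 245 lower; upper-quartile scaling gave 407 and 332, and log2(FPKM + 1) gave 320 and 416. Deviations of same-numbered libraries correlated at 0.084, 0.41, 0.22 and 0.30 in HFD against NFD and at -0.48 to -0.038 in both comparisons with HFD+TUDCA. HFD replicates 2, 3 and 4 correlated best with the NFD library of the same number, and HFD replicate 1 with NFD replicate 3 (0.37). The labels do not name pairs, so the numbers were not taken as pairs in the main fit, and a replicate block was run as an alternative. The replicate block gave 776, 0 and 8 genes, Tpsb2 at -0.24 in HFD+TUDCA against HFD, and Hdc at an adjusted p of 0.0371 in HFD against NFD. Fcer1a with 8 to 59 counts and Ms4a2 with 0 to 7 are limited by depth.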
